A study of Mus musculus with 20 samples.

Results

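The nuclear genes of the mitochondrial respiratory chain and of ATP synthase were taken as the protein-coding mm10 genes whose symbols begin with Nduf, Uqcr, Cox4, Cox5, Cox6, Cox7, Cox8, Sdh or Atp5. This rule gave 100 genes of 21779, and each was scored for p65 and SOCS1 peaks with a centre within 1 kb, and then within 10 kb, of either gene end. The genes cover all 5 complexes: 41 subunits and 8 assembly factors of complex I, 8 genes of complex II, 8 of complex III, 18 of complex IV and 17 of complex V, which is ATP synthase. Peaks came from CUT&RUN, in which an antibody-tethered nuclease releases the DNA around a bound protein, in mouse bone-marrow-derived macrophages grown for 5 days with M-CSF. The cells were wild type (WT, strain written C65BL6 in the series' text) or knockout (KO), left without stimulus (control) or stimulated with lipopolysaccharide (LPS, 100 ng/mL) for 30 min or 8 h. The series' text calls the knockout NOS1 while its title concerns SOCS1, so the deleted gene is unsettled, and SOCS1 peaks in KO cells are described only as peaks of the SOCS1 antibody. With 12 lists for 12 combinations of antibody, genotype and treatment, nothing is replicated, no group difference has a test, and the counts below describe single libraries. The 6 IgG libraries entered only through the authors' peak calls, and 2 further control libraries were not analysed here. Peaks do not measure expression, so the macrophage label was not checked against expressed markers.

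Complexes I, III and IV pass electrons from NADH to oxygen and pump protons across the inner mitochondrial membrane, complex II feeds in electrons from succinate, and complex V uses the proton gradient to make ATP. Nearly all of their subunits are encoded in the nucleus, usually behind active, CpG-rich promoters that bind factors such as NRF1, ETS proteins and YY1. Macrophages given LPS are known to shift from oxidative phosphorylation towards glycolysis, and complex II is known for its part in that shift. p65 (RELA) is the activating NF-κB subunit that enters the nucleus after LPS, and SOCS1 is a feedback inhibitor of cytokine signalling through JAK kinases.

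Promoters of 6 of these genes, whose peaks recurred in 9 to 12 of the 12 lists, are shown as examples of where short promoter motifs lie relative to peaks. Other genes recurred as often, among them Ndufb1 and Atp5md in 11 lists each, with none of the motifs below. The 6 examples therefore do not give the frequency of motifs in recurrent peaks. Each line gives the 250 bases before the transcription start, from RefSeq on GRCm38.p6 (mm10), 5′ to 3′ on the gene's own strand. Capitals mark matches, on either strand, to the NRF1 letters GCGCATGCG, the ETS letters CCGGAAGT, the YY1 letters AANATGGCG, the STAT letters TTCNNNGAA, the κB letters GGANTTTCC or the NF-κB consensus. The κB letters and the consensus can cover the same bases, and the NRF1 match of Ndufa11 is 2 overlapping matches, 1 per strand. The windows are chr9:108567437-108567686 for Ndufaf3 (minus strand), chr9:44920743-44920992 for Atp5l (minus), chr17:56717512-56717761 for Ndufa11 (plus), chr11:115419920-115420169 for Atp5h (minus), chr8:69902021-69902270 for Ndufa13 (minus) and chrX:20617620-20617869 for Ndufb11 (minus).
Ndufaf3: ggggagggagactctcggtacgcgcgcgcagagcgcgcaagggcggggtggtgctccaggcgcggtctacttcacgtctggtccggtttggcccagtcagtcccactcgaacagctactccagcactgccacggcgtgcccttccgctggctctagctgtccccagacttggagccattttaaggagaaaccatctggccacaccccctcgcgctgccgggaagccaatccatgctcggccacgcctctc
Atp5l: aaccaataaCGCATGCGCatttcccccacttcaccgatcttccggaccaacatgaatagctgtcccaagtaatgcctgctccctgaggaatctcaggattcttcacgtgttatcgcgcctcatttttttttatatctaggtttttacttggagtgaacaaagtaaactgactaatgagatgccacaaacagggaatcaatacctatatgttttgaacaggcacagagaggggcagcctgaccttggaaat
Ndufa11: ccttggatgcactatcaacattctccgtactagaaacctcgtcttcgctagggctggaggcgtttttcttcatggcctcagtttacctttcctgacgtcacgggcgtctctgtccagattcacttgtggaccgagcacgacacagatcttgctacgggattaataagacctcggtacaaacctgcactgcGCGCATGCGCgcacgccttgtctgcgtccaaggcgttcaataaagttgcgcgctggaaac
Atp5h: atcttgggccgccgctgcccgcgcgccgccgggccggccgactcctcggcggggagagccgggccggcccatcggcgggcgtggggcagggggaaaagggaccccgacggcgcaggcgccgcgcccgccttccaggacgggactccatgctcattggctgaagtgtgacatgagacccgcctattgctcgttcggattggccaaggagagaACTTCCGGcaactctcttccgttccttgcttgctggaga
Ndufa13: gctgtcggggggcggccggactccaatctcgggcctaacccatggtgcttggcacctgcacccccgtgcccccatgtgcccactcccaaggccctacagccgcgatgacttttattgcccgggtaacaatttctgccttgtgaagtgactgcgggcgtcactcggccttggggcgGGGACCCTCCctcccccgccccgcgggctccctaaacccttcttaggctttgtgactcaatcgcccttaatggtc
Ndufb11: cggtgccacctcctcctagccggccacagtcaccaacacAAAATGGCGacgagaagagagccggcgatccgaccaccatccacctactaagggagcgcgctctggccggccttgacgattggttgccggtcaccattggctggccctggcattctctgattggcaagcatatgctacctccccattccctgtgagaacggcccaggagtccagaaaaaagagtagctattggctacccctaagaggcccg
In these 6 windows the matches were an NRF1 match at Atp5l, an NRF1 match at Ndufa11, an ETS match at Atp5h, an NF-κB consensus match at Ndufa13 and a YY1 match at Ndufb11. Ndufaf3, the gene whose peaks recurred most, had none of the motifs in its 250 bases. The ETS match of Atp5h, from -39 to -32 relative to the start, lay inside the highest-scoring peak in 8 of its 10 lists. The NRF1 match of Atp5l, from -241 to -233, was covered in 5 of 11 lists, and the peaks were centred 322 to 439 bp upstream of the start. The NRF1 match of Ndufa11, from -60 to -51, was covered in 0 of 11 lists. The consensus match of Ndufa13, from -75 to -66, was covered in 2 of 9 lists, and the YY1 match of Ndufb11, from -211 to -203, in 2 of 10.

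Respiratory genes had p65 peaks at their ends more often than genes in general, in every list. In WT cells, 28 of the 100 had a p65 peak within 1 kb in the control library, against 13.5% of all genes, 72 at 30 min of LPS, against 36.9%, and 65 at 8 h, against 31.9%. In KO cells the counts were 27 in control, against 16.3%, 78 at 30 min, against 42.1%, and 53 at 8 h, against 26.1%. The p65 libraries held 7.69, 13.3 and 10.6 M tags in WT and 8.79, 18.4 and 11 M in KO, and the 2 deepest, both at 30 min, held the most respiratory genes. The share of the respiratory genes stood above that of all genes in every p65 list, and the background was itself largest at 30 min.

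SOCS1 peaks were also found at more of these genes than at genes in general, with a smaller difference. In WT cells, 25 had a SOCS1 peak within 1 kb in control, against 14.2% of all genes, 45 at 30 min, against 25.3%, and 27 at 8 h, against 18.5%. In KO cells the counts were 37 in control, against 26.8%, 50 at 30 min, against 28.4%, and 41 at 8 h, against 22.7%. These libraries held 6.93, 9.74 and 9.51 M tags in WT and 8.06, 9.11 and 7.77 M in KO. In points, the smallest excess over all genes was in WT cells at 8 h. In the KO control lists 91.4% of p65 peaks and 88% of SOCS1 peaks stood over the lowest IgG value that findPeaks allows, 0.5 tags, against 14.7% to 43% in the other lists, and the part of this in the counts was not tested.

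**Figure D1:**
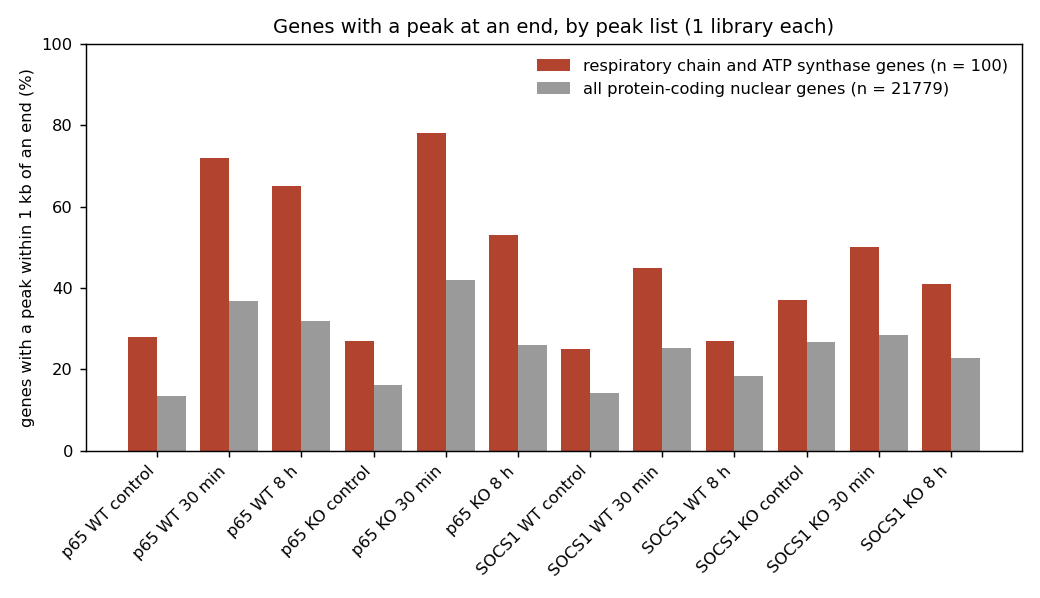
Bars give the share of genes, in percent, with a peak centre within 1 kb of a gene end in each of the 12 lists, for the 100 respiratory genes and for all 21779 protein-coding genes, with 1 library per list and no error bars. The respiratory genes stand above all genes in each list, from 25% to 78% against 13.5% to 42.1%.

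Widening the window to 10 kb raised both shares in every list, and the respiratory genes stayed above all genes. With p65 in WT cells, 39 genes had a peak within 10 kb in control, against 28.5% of all genes, 88 at 30 min, against 59.2%, and 82 at 8 h, against 52.9%. In KO cells the p65 counts were 47, 92 and 72, against 31.6%, 63.1% and 51.5%. SOCS1 counts within 10 kb were 41, 65 and 47 in WT, against 28.3%, 44.1% and 35.1%, and 73, 67 and 69 in KO, against 50.1%, 47.5% and 41%. Over all 12 lists, 88 of the 100 genes had a peak within 1 kb in at least 1 list, against 52.6% of all genes, and 96 had one within 10 kb, against 72.6%. The median respiratory gene was in 5 lists within 1 kb and the median gene overall in 1, and 18 genes were in at least 10 lists, against 7.13%. By antibody, 87 had a p65 peak in any list, against 49.4%, and 77 a SOCS1 peak, against 44.8%.

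After LPS, many respiratory genes that had no p65 peak in control cells had one. In WT cells, 72 genes lacked a control peak and 46 of these had a p65 peak at 30 min, 63.9% against 29.9% of all genes without one, and 42 of 72 had one at 8 h, 58.3% against 24.6%. In KO cells, 52 of 73 had one at 30 min, 71.2% against 33%, and 34 of 73 at 8 h, 46.6% against 19.1%. Control peaks were missing afterwards at a smaller share of respiratory genes than of all genes. In WT cells, 2 of 28 (Sdhb and Uqcr11) were missing at 30 min, 7.14% against 17.9% of all genes, and 5 of 28 (Cox4i1, Ndufs7, Sdhaf4, Sdhb and Uqcrc1) at 8 h, 17.9% against 21.1%. In KO cells, 1 of 27 (Atp5j2) was missing at 30 min, 3.70% against 11.2%, and 8 of 27 at 8 h, 29.6% against 38%. The direction of these p65 counts depends on list length: with each list limited to its 9438 highest-scoring peaks, p65 in WT was at 28 respiratory genes before LPS, 19 after 30 min and 19 after 8 h, against 13.3%, 12.7% and 10.3% of all genes. In KO the same lists gave 25, 20 and 17, against 15.3%, 11.9% and 10.6%. At equal length, fewer respiratory genes had a p65 peak after LPS than in control in both genotypes. With a lowest score of 12 in all lists, the counts were instead higher after LPS. They were 19, 71 and 61 in WT, against 8.69%, 35.8% and 29.7% of all genes. KO gave 14, 78 and 53, against 9.31%, 41.9% and 26.1%.

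For SOCS1, fewer genes lacking a control peak had one after LPS, and more control peaks were missing. In WT cells, 29 of 75 such genes had a SOCS1 peak at 30 min, 38.7% against 18.6% of all such genes, and 12 of 75 at 8 h, 16% against 12%. In KO cells, 25 of 63 had one at 30 min, 39.7% against 14.6%, and 19 of 63 at 8 h, 30.2% against 10.9%. Of the genes with a control peak, 9 of 25 had none at 30 min in WT and 10 of 25 none at 8 h, 36% and 40%, close to the 34.5% and 42.1% of all genes. In KO, 12 of 37 and 15 of 37 had none, 32.4% and 40.5% against 33.7% and 45.2%.

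Between 30 min and 8 h, 17 of 72 WT p65 genes were no longer called, 23.6% against 28.7%, and 10 of 28 were newly called, 35.7% against 8.89%. In KO these were 29 of 78, 37.2% against 44.2%, and 4 of 22, 18.2% against 4.48%. In WT, 55 genes had p65 at both LPS times, against 26.3%, and in KO 49, against 23.5%. For SOCS1 these were 20, against 12.2%, and 28, against 16.6%. The p65 calls that held across LPS lists form a core of 35 genes with a peak within 1 kb at both LPS times in both genotypes, against 16.7% of all genes. Among them, 11 had no p65 peak in either control list, against 6.03% of all genes: Atp5e, Atp5mpl, Cox6a1, Cox7a1, Ndufaf4, Ndufb11, Ndufb3, Ndufc1, Ndufv1, Ndufv3 and Sdhc. Another 7 of the 35 had a p65 peak in all 6 p65 lists, against 3.32%: Atp5b, Atp5md, Ndufaf3, Ndufb1, Ndufb9, Sdhaf1 and Uqcrc2. The set called after LPS alone thus spans complexes I, II, IV and V, and the set called throughout includes Uqcrc2 of complex III. SOCS1 peaks were in all 6 SOCS1 lists at 4 genes, Atp5l, Ndufa11, Ndufaf3 and Ndufb11, against 3.34% of all genes. There were 11 genes with p65 in at least 1 list and SOCS1 in none, against 7.79%, and 1 with SOCS1 but no p65, Cox7b, against 3.17%.

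Complex I, the NADH dehydrogenase, is the largest complex. In WT, 10 of its 41 subunits had a p65 peak within 1 kb without LPS, 30 at 30 min and 30 at 8 h, against 13.5%, 36.9% and 31.9% of all genes, and in KO 12, 35 and 24, against 16.3%, 42.1% and 26.1%. SOCS1 peaks were at 14, 16 and 14 of them in WT, against 14.2%, 25.3% and 18.5%, and at 16, 23 and 21 in KO, against 26.8%, 28.4% and 22.7%. The same 12 shares of all genes stand behind the counts of each complex below. The score used here is the authors' findPeaks score, which follows the number of tags in a peak and is read within 1 list only. The highest p65 score of the 100 genes in WT at 30 min was at Ndufs8, an iron-sulfur subunit next to the quinone site, with 82.5. That peak, chr19:3912560-3912814, ranked 1419 among the 36030 peaks of its list. Tag counts are those the authors scaled to 10000000 tags per library, called scaled tags below, over peaks 223 to 493 bp wide by list. In WT cells the Ndufs8 p65 peak held 39 scaled tags in control, 170 at 30 min and 82.2 at 8 h, where the highest-scoring peak lay at the other end of the gene. In KO cells it held 110.4 in control and 158.7 at 30 min, with no peak called at 8 h, and the KO control peak ranked 7 of 10721 in its list. The Ndufs8 SOCS1 peak held 85.1, 119.6 and 78.9 scaled tags in WT and 132.8 and 121.3 in KO control and 30 min cells, with none at 8 h.

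Ndufa11, a membrane-arm subunit, had p65 peaks of 101 and 37.8 scaled tags at 30 min and 8 h in WT, with none in control, and of 30.2, 94.1 and 65.9 in KO. Its SOCS1 peaks held 45.5, 59 and 35.8 in WT and 132.8, 148.8 and 108.7 in KO. Each KO value stood above the 3 WT values. Median SOCS1 tags over all genes with a peak were also higher in KO, at 37.2, 37.9 and 29, against 27.4, 25.7 and 20.5 in WT. SOCS1 peaks were wider in the KO lists, at 375 to 415 bp against 227 to 343 bp. The Ndufa11 peaks were centred 249 to 604 bp upstream of the start, and an end of Vmac was nearer in all 11 lists. Ndufv2, of the NADH-oxidizing arm, had p65 peaks of 24.7, 63.8 and 35.4 in WT and 93.8 and 71.4 in KO after LPS. Its partner Ndufv1, which binds NADH and FMN, had p65 scores of 24.5 and 12.5 after LPS in WT and 31 and 16.5 in KO.

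Among subunits with few calls, Ndufa1 had 1 list, and Ndufa7, Ndufa9 and Ndufb10 had 2 each. Ndufa4l2, a relative of Ndufa4 known to be induced by hypoxia, and Ndufb4b and Ndufb4c, further copies of Ndufb4, had none within 1 kb. Ndufb4 itself was in 7 lists. Reads from near-identical copies can be placed on any of them, so the contrast between Ndufb4 and its copies is uncertain. Ndufa4, now usually counted with complex IV, was in 10 lists, 5 for each antibody.

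All 8 complex I assembly factors, which build the complex and are not part of it, had a p65 peak within 1 kb in WT cells at 30 min (36.9% of all genes), with 2 in control (13.5%) and 5 at 8 h (31.9%). In KO cells the counts were 2, 7 and 4, and for SOCS1 they were 2, 6 and 3 in WT and 3, 6 and 2 in KO. Ndufaf3 was the only one of the 100 genes with a peak within 1 kb in all 12 lists, against 0.987% of all genes. Its highest-scoring p65 peaks held 46.8, 81.1 and 94 scaled tags in WT and 31.9, 120.2 and 108.6 in KO. Both LPS values were above control in each genotype, but the WT control and 30 min peaks were separate sites without overlap. Its highest-scoring SOCS1 peaks held 36.1, 55.9 and 41 in WT and 74.5, 141.7 and 99.1 in KO. Each KO value stood above each WT value, as did the SOCS1 medians over all genes given above. The KO control and 8 h peaks did not overlap any of these WT peaks. The called peaks spread over chr9:108566900-108567944 with an end of Dalrd3 within 1 kb of each, and the highest-scoring centres lay from 311 bp upstream to 329 bp downstream of the Ndufaf3 start.

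**Figure D2:**
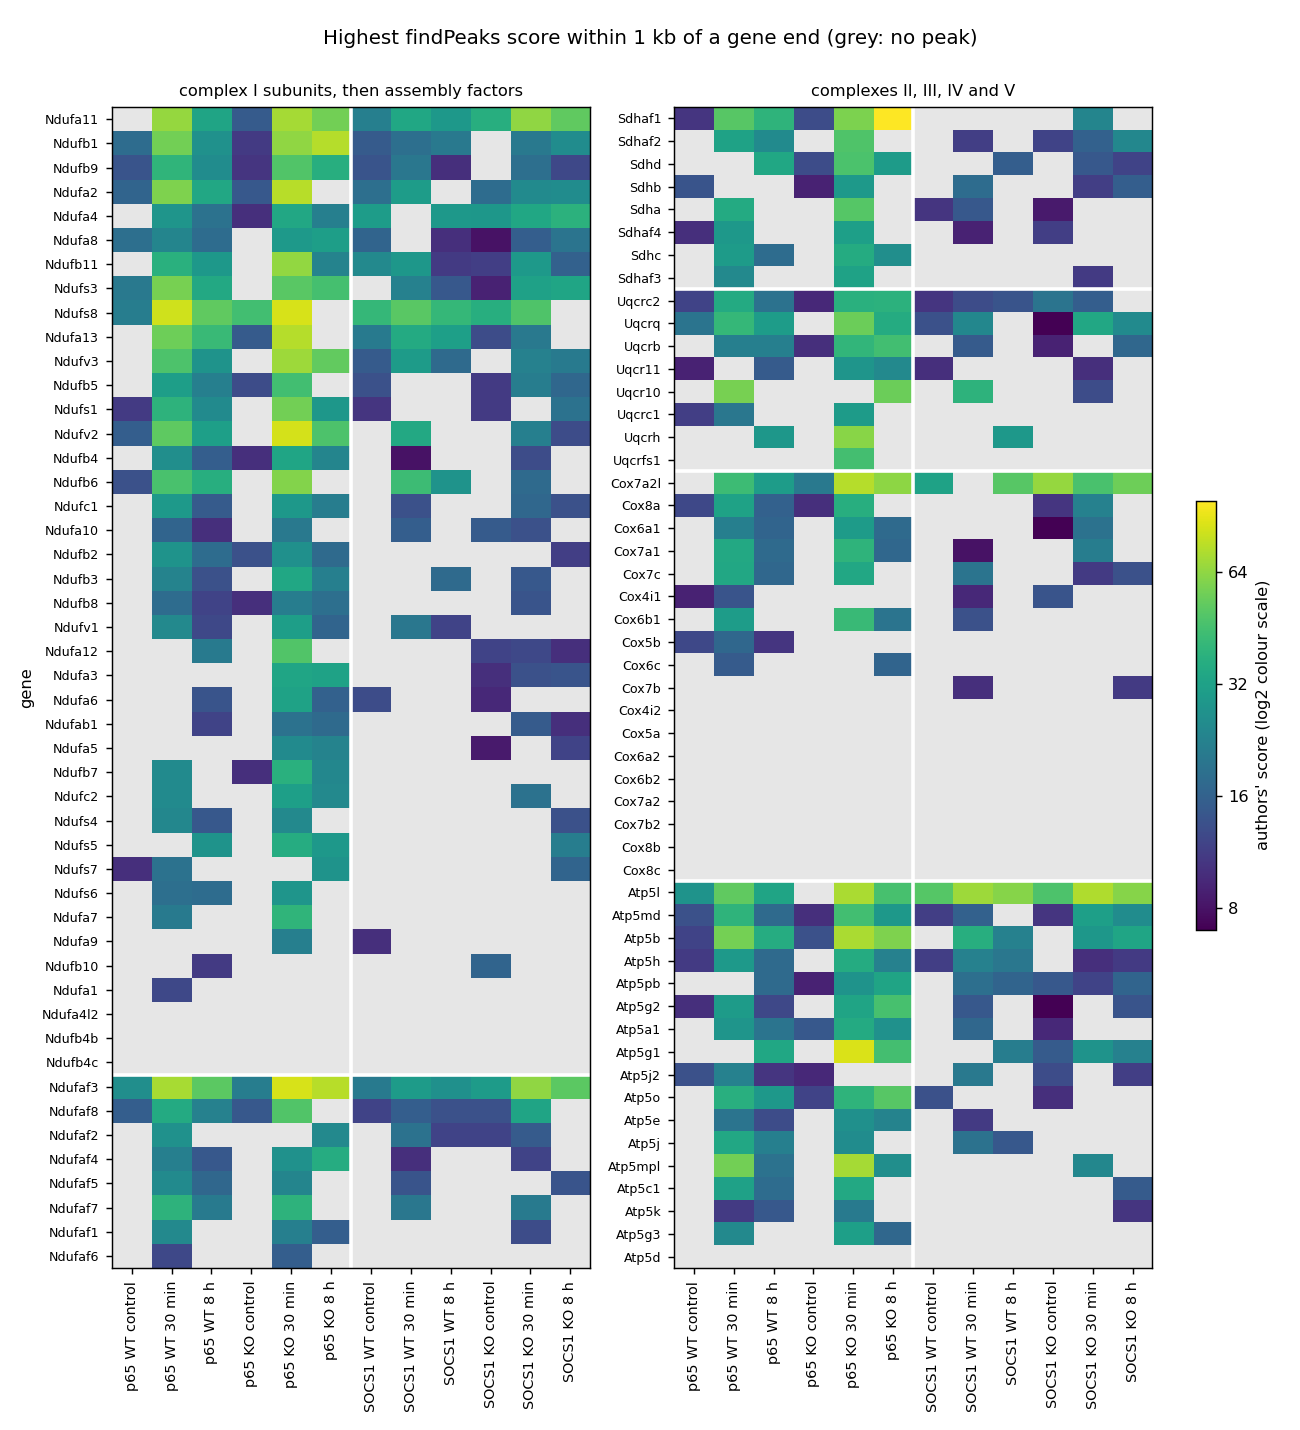
Each cell is the authors' findPeaks score, on a log2 colour scale, of the highest-scoring peak within 1 kb of a gene end, with the genes as rows by complex, 1 of the 100 not shown, and the 12 lists as columns, 1 library each. Grey cells had no peak. The p65 columns after LPS hold 53 to 78 genes each, counting the gene not shown, and 12 genes have no peak in any column.

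Complex II oxidizes succinate, and its 8 genes are 4 subunits and 4 assembly factors. In WT cells, 3 of the 8 had a p65 peak within 1 kb in control, 6 at 30 min and 4 at 8 h, against 13.5%, 36.9% and 31.9% of all genes, and in KO cells 3, 8 and 3. SOCS1 peaks were at 1, 4 and 1 in WT and 3, 5 and 3 in KO. Sdha, the succinate-oxidizing flavoprotein, had p65 peaks at 30 min alone, with 42.8 scaled tags in WT and 44.8 in KO. Sdhb, the iron-sulfur subunit, had a p65 peak of 18.2 in WT control cells and none at either LPS time, and 15.9 and 25.8 in KO control and 30 min cells. Of the membrane anchors, Sdhc had no control p65 peak, 28.9 and 16.1 in WT and 25.5 and 27.7 in KO after LPS, and no SOCS1 peak in any list. Sdhd had p65 peaks of 37.3 at 8 h in WT and 29.6, 49.6 and 36.8 in KO, where the neighbouring gene Timm8b shares the site.

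The complex II assembly factors differed from each other. Sdhaf1, which helps place iron-sulfur clusters in Sdhb, had a p65 peak in all 6 lists, of 19.5, 55.5 and 41.1 scaled tags in WT and 27.3, 54.8 and 143.6 in KO. The last of these was the highest-scoring respiratory gene in its list, with a score of 99.5 at chr7:30322571-30323063, although peaks in that list were also the widest, at 493 bp. The WT control peak, centred at chr7:30321368, did not overlap the others. No other gene had an end within 1 kb of these peaks. The single SOCS1 peak of Sdhaf1 was in KO cells at 30 min, with 48.9. Sdhaf2, which helps attach FAD to Sdha, had p65 peaks of 38.3 and 26.4 after LPS in WT and 36.1 in KO at 30 min, with no control peak. Sdhaf3 had p65 peaks at 30 min alone, of 26.3 in WT and 22 in KO. Sdhaf4 had p65 peaks of 22.8 and 30.8 in WT control and 30 min cells and 23.6 in KO at 30 min.

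Complex III moves electrons from quinol to cytochrome c. In WT, 4 of its 8 genes had a p65 peak within 1 kb without LPS, 5 at 30 min and 5 at 8 h, against 13.5%, 36.9% and 31.9% of all genes, and 2, 7 and 5 did in KO. SOCS1 peaks were at 3, 4 and 2 in WT and 3, 4 and 2 in KO. Uqcrc2, a core subunit, was in 11 lists. Its p65 peaks held 20.2, 48.4 and 18.4 scaled tags in WT and 22.2, 31.5 and 42.3 in KO, and its SOCS1 peaks held 19.5, 17.4 and 18.9 in WT and 53.4 and 34 in KO control and 30 min cells. The 3 SOCS1 values in WT differed by little, although the 8 h peak overlapped neither the control nor the 30 min peak. The 30 min p65 value stood apart in WT.

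The other complex III genes were called less regularly. Uqcrq was in 10 lists, with p65 at 28, 63.8 and 40.6 scaled tags in WT. Uqcrb was in 8, with p65 at 28.5 and 21.2 after LPS in WT and 16.5, 37.7 and 52.3 in KO. Uqcr10 had p65 peaks of 90.1 at 30 min in WT and 72.3 at 8 h in KO and in no other p65 list. Uqcrh, the hinge subunit, had p65 peaks of 28.8 at 8 h in WT and 93.8 at 30 min in KO. Uqcr11 was in 6 lists with at most 32.7, and Uqcrc1, the other core subunit, was in 3. Uqcrfs1, the Rieske iron-sulfur protein, had 1 peak, p65 in KO cells at 30 min, of 38.

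Complex IV reduces oxygen and had the smallest share of genes with a peak among the 5 complexes in each of the 12 lists. Its genes include tissue isoforms without any peak within 1 kb, named below, which lower these shares. In WT, 3 of its 18 genes had a p65 peak within 1 kb without LPS, 9 at 30 min and 6 at 8 h, against 13.5%, 36.9% and 31.9% of all genes, and 2, 6 and 5 did in KO. SOCS1 peaks were at 1, 5 and 1 in WT and 4, 5 and 3 in KO. Of the 8 tissue or hypoxia isoforms among the 100 genes, most of them in complex IV, 7 had no peak within 1 kb in any list, against 47.4% of all genes. These were Cox4i2 (lung), Cox6a2 and Cox8b (heart and skeletal muscle), Cox6b2, Cox7b2 and Cox8c (testis) and Ndufa4l2. The exception was Cox7a1, the heart and muscle form, which was in 6 lists, with p65 scores of 35 and 17.5 after LPS in WT and 39.5 and 17 in KO and no control peak. Of the 80 structural subunits that are not such isoforms, 59 had a p65 peak within 1 kb in WT at 30 min and 66 in KO.

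Cox7a2l, which joins complexes III and IV into supercomplexes, was the complex IV gene with the most lists, 10. Its SOCS1 peak held 80.8 and 99.4 scaled tags in WT control and 8 h cells, with none called at 30 min, and 286.8, 108.2 and 94.6 in KO. The KO control value was the highest-scoring respiratory gene of its list, ranked 25 of 24270 peaks, at chr17:83514012-83514426. Its p65 peaks held 42.4 and 42 in WT after LPS and 52.3, 111.5 and 103.6 in KO. Every KO p65 value was above the WT ones, but these peaks differed in place and width. The WT and KO peaks at 30 min did not overlap, and widths were 239 to 255 bp in WT and 223 to 493 bp in KO. No other gene end lay within 1 kb. Among the ubiquitous subunits, Cox5a and Cox7a2 had no peak within 1 kb in any list, although peaks within 10 kb were in 10 and 8 lists. Cox4i1, the common form of subunit 4, was in 4 lists with p65 scores of at most 14.

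ATP synthase genes had the largest p65 share among the complexes after LPS in WT cells. Of 17 genes, 6 had a p65 peak within 1 kb in control, 14 at 30 min and 15 at 8 h in WT, against 13.5%, 36.9% and 31.9% of all genes, and 6, 15 and 12 in KO. SOCS1 peaks were at 4, 10 and 6 in WT and 8, 7 and 10 in KO. Atp5l, subunit g of the membrane part, had SOCS1 peaks in all 6 lists and had the highest score of the 100 genes in 5 of them. These held 117.6, 184.7 and 98.3 scaled tags in WT and 198, 218 and 117.1 in KO, with the highest value at 30 min in each genotype. Its p65 peaks held 44.2, 79.2 and 43.9 in WT and 87.9 and 65.9 after LPS in KO, below the SOCS1 values in each list pair. The 11 highest-scoring peaks lay in chr9:44920876-44921368, with centres within 117 bp of each other and no other gene end within 1 kb.

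The catalytic beta subunit, Atp5b, was in 10 lists. Its p65 peaks held 15.6, 81.8 and 49.6 scaled tags in WT and 21.1, 72.7 and 80 in KO. In the 4 p65 LPS lists and both WT SOCS1 lists that held it, the highest-scoring peak lay 7647 to 8022 bp from the start, past the far end of the gene, and Baz2a had the nearer end, so these values cannot be assigned to the Atp5b promoter. Atp5g1, which encodes the c-ring subunit, had p65 scores of 34 at 8 h in WT and 86 and 45 after LPS in KO, and no peak at 30 min in WT. Atp5mpl, a small subunit, had p65 scores of 57 and 19 after LPS in WT and 70 and 26 in KO. Atp5d, the delta subunit of the rotor, had no peak within 1 kb and a peak within 10 kb in all 12 lists.

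**Figure D3:**
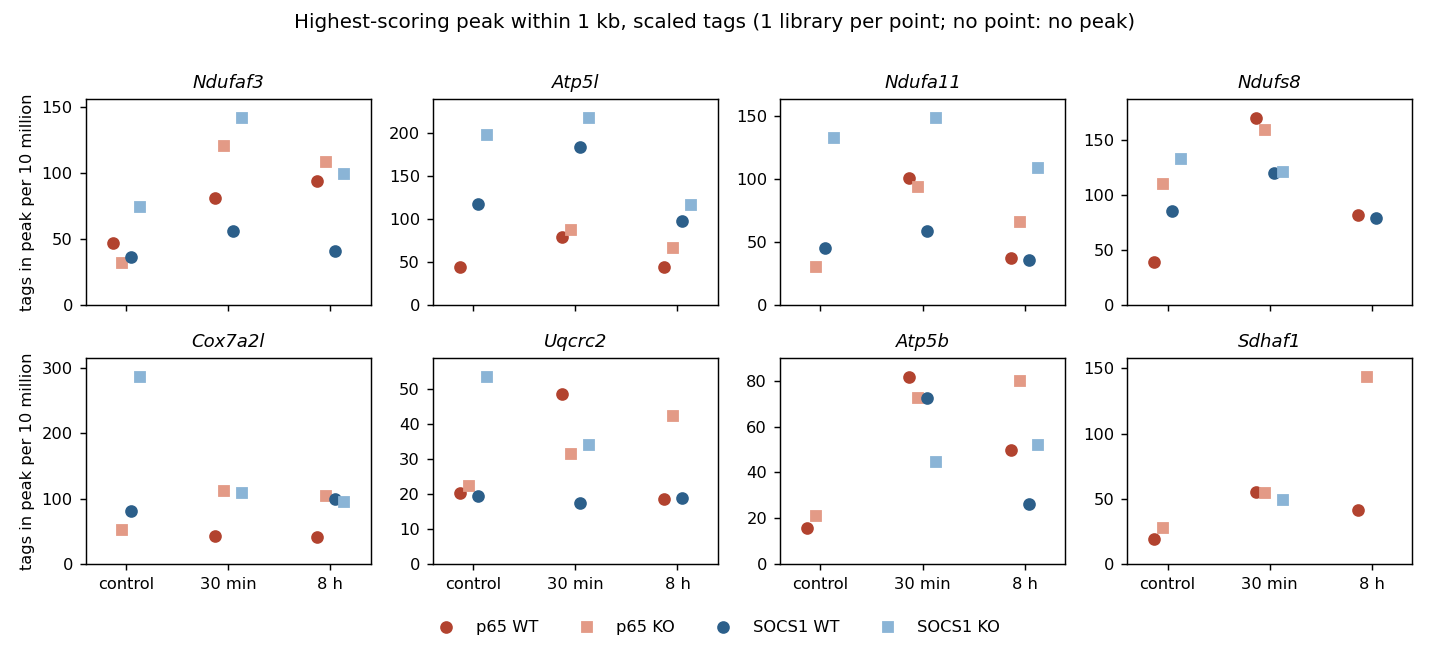
Each panel is 1 gene and each point 1 library, with the treatment on the horizontal axis and, on the vertical axis, tags in the highest-scoring peak within 1 kb, scaled by the authors to 10000000 per library. No point means no peak. Cox7a2l has its highest point, 286.8, with SOCS1 in KO control cells, and Sdhaf1 its highest, 143.6, with p65 in KO cells at 8 h.

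p65 and SOCS1 peaks of matched libraries often covered the same site at these genes. In WT cells, 9 genes had overlapping p65 and SOCS1 peaks within 1 kb in control, against 4.80% of all genes, 34 at 30 min, against 16.8%, and 22 at 8 h, against 13.4%. In KO cells the counts were 14, 39 and 21, against 8.61%, 20.6% and 13.6%. Read as a share of the respiratory genes with a SOCS1 peak, overlap was 36%, 75.6% and 81.5% in WT, against 33.9%, 66.5% and 72.1% of all genes with one, and 37.8%, 78% and 51.2% in KO, against 32.2%, 72.7% and 59.9%. As a share of those with a p65 peak it was 32.1%, 47.2% and 33.8% in WT, against 35.6%, 45.5% and 41.8%, and 51.9%, 50% and 39.6% in KO, against 52.9%, 49.1% and 52.1%. The excess of shared sites at respiratory genes was thus present in the counts per gene, while the shares among bound genes lay on both sides of the background. Both antibodies were called against one IgG library per genotype and treatment.

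Overlapping peaks were in 5 of the 6 genotype and treatment groups at Atp5h, Atp5l, Ndufaf3, Ndufb9 and Ndufs8. At Atp5l at 30 min in WT, the p65 peak chr9:44921007-44921261 (score 52.5) and the SOCS1 peak chr9:44921039-44921265 (67.5) had centres 18 bp apart. At Ndufs8 in the same cells the scores were 82.5 and 50.5 with centres 17 bp apart. The centres at Atp5h, which encodes subunit d of the ATP synthase stalk, lay 3 bp apart at 8 h in WT and 296 bp apart at 30 min in KO. Ndufb9, a membrane-arm subunit of complex I, had centres 2 to 212 bp apart. Genes with p65 and no SOCS1 peak numbered 30 at 30 min and 39 at 8 h in WT, against 15.7% and 15.5% of all genes, and 30 and 24 in KO, against 16.5% and 10%. The overlapping class was the larger of these classes at 30 min in both genotypes, and p65 alone was the larger at 8 h.

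**Figure D4:**
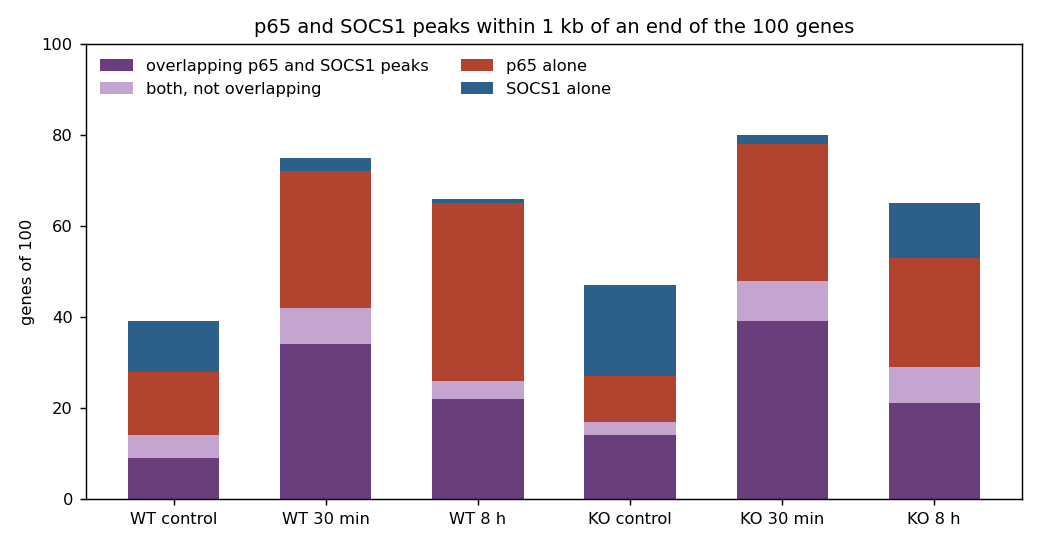
Stacked bars count the 100 genes by the peaks within 1 kb of their ends in each genotype and treatment, 1 library per antibody: overlapping p65 and SOCS1 peaks, both without overlap, p65 alone or SOCS1 alone. Overlapping sites number 9 to 39, and SOCS1 alone is largest in KO control cells, at 20 genes.

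WT and KO lists shared most respiratory genes with p65 at 30 min and fewer otherwise. A p65 peak within 1 kb was called in both genotypes at 13 genes in control, 64 at 30 min and 42 at 8 h, against 5.91%, 32.8% and 20.4% of all genes. It was called in WT alone at 15, 8 and 23, against 7.55%, 4.10% and 11.6%, and in KO alone at 14, 14 and 11, against 10.4%, 9.23% and 5.69%. For SOCS1 the genes in both were 19, 31 and 16, against 9.62%, 17.5% and 12.4%. WT alone held 6, 14 and 11, against 4.55%, 7.72% and 6.13%, and KO alone 18, 19 and 25, against 17.1%, 10.8% and 10.3%.

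Few genes differed between the genotypes at both LPS times. With p65, Atp5j2 (subunit f) and Cox5b were called at 30 min and 8 h in WT and at neither in KO, against 0.758% of all genes, and Ndufa3 and Ndufa5 the other way round, against 1.14%. The scores of Atp5j2 were 22.5 at 30 min and 10.5 at 8 h and those of Cox5b 17 and 10.5. Both 8 h scores were close to 10, the lowest score in that list. Ndufa3 had 33.5 and 32.5 in KO and Ndufa5 25 and 23. With SOCS1, 3 genes, among them Atp5j and Ndufv1, were called in WT alone at both times, against 1.01%, and Ndufa12, Ndufa3, Ndufab1 and Ndufb5 in KO alone, against 2.45%. Ndufa3 was the gene that both antibodies gave in KO alone.

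The peaks lay close to transcription starts, on either side of them. Starts were known from RefSeq for 82 of the 100 genes. In 254 of 269 gene and list pairs for p65 and 180 of 192 for SOCS1, the highest-scoring peak was centred within 1 kb of the start. These pairs were chosen for a peak within 1 kb of either gene end, so nearness to the start was partly set by the rule. Centres 100 to 400 bp downstream made up 38.7% of the p65 pairs, against 22.8% for all genes, and centres 100 to 400 bp upstream 30.9%, against 31.1%. The 100 bp just upstream of the start held 1.12% of p65 pairs, against 2.24%, and 3.13% of SOCS1 pairs, against 2.83%. The pairs share genes, sites and libraries. Among 72 genes over 2 kb long with a known start, 52 had a p65 peak within 1 kb of it in WT cells at 30 min. At 4 of the 72, one lay at the far end. These were 72.2% and 5.56%, against 39.1% and 4.48% of all 15328 such genes. Far-end peaks led at Ndufb6, where 6 of 7 lists placed the highest-scoring peak 9681 to 9759 bp from the start. They also led at Atp5b, described above, and at Ndufa8. Over the 10 lists of Ndufa8 the median centre lay 13520.5 bp from the start, so most of its calls were not at its promoter.

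**Figure D5:**
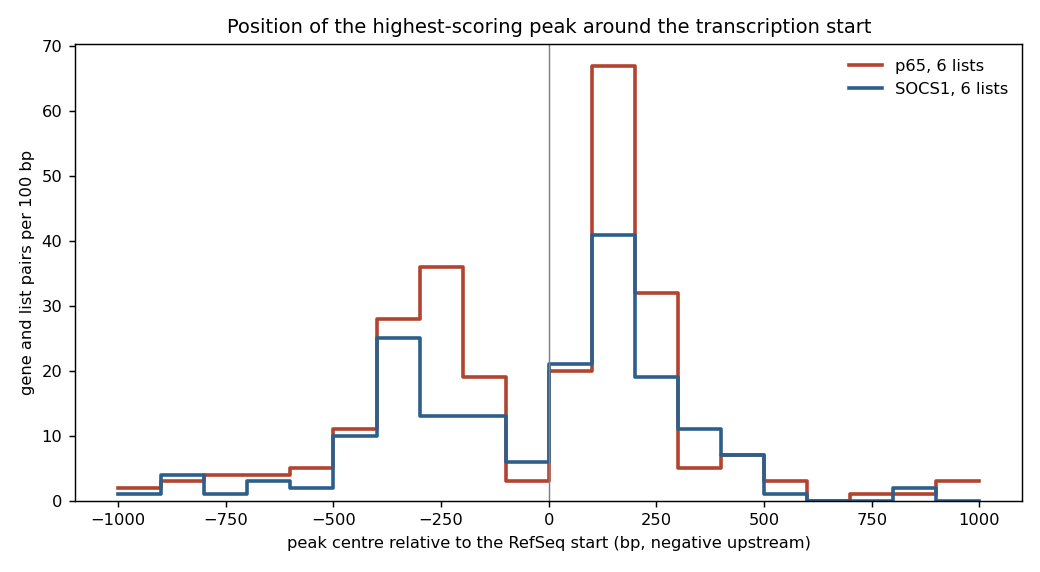
Lines count gene and list pairs per 100 bp by the distance of the highest-scoring peak centre from the RefSeq start (negative is upstream), over the 6 p65 lists and the 6 SOCS1 lists, 1 library each. Both antibodies give an upstream and a downstream group of centres, with few pairs in the 100 bp before the start.

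Crowding and CpG content go with having a peak at an end, and their part in the counts was not tested. Respiratory genes are short and crowded: 55 of 100 had another gene's end within 1 kb of their own, against 24.8% of all genes, and the median length was 7337 bp, against 17217 bp. In WT cells at 30 min, p65 peaks were at 28 of the 45 genes without such a neighbour, 62.2% against 30% of all genes without one, and at 44 of the 55 with one, 80% against 57.9%. SOCS1 peaks were at 12 of 45, 26.7% against 19.8%, and at 33 of 55, 60% against 42%. The gap to all genes was thus wider among uncrowded genes for p65 and narrower for SOCS1. Among the 72 genes called for p65 in that list, 37 peaks also lay within 1 kb of another gene, 51.4% against 27.7% of all genes called. At 52 the respiratory gene was the nearest. For SOCS1 in WT, 17 of 25, 28 of 45 and 20 of 27 peaks did so in control, at 30 min and at 8 h. These were 68%, 62.2% and 74.1%, against 33%, 29.3% and 34.1%. The respiratory gene was nearest at 14, 30 and 15. In KO the SOCS1 shares were 51.4%, 50% and 53.7%, against 29.6%, 30.7% and 32.7%.

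Promoters of the respiratory genes were also richer in CpG. Of 82 promoter windows (250 bp before to 50 bp after the start), 63 were CpG-rich, with a GC content of at least 50% and an observed over expected CpG of at least 0.6, which is 76.8% against 45.8% of 17492 genes. Within CpG-rich genes, p65 peaks were at 76.2% of respiratory genes in WT at 30 min, against 58% of all, and at 87.3% in KO, against 65.7%. In control cells the p65 shares within CpG-rich genes were 28.6% in WT and 27% in KO, against 22.1% and 26.6%. SOCS1 shares within CpG-rich genes were near the background, with 44.4% against 41.4% at 30 min in WT, 31.7% against 30% at 8 h in WT and 39.7% against 42.6% in KO control cells. They were further apart in KO cells at 30 min, with 57.1% against 46.6%. Among the 19 respiratory genes with other promoter windows the gap to all such genes was wider. There, SOCS1 peaks were at 47.4% against 12.8% at 30 min in WT, 47.4% against 14.4% at 30 min in KO and 47.4% against 11.3% at 8 h in KO. p65 peaks were at 57.9% of these 19 genes at 30 min in WT, against 20% of all such genes, and at 63.2% in KO, against 23.3%.

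Motif letters in these windows were more frequent than in all genes for NRF1 and YY1. The NRF1 letters were in 10 of 82 windows, 12.2% against 2.41% of all genes, and the YY1 letters in 10, 12.2% against 3.28%. ETS letters were in 5, 6.10% against 5.28%, and STAT letters in 5, 6.10% against 7.78%. The NF-κB consensus was in 8, 9.76% against 8.86%, and the stricter κB letters in 0, against 1.25%. All 10 windows with the NRF1 letters and all 10 with the YY1 letters belonged to genes with a p65 peak within 1 kb at 30 min in WT or KO, as did 73 of the 82 windows; among all genes, 333 of 422 windows with the NRF1 letters did. Of the 8 with the NF-κB consensus, 6 did, against 838 of 1550 among all genes. All 5 windows with the ETS letters did, against 779 of 923, and 4 of the 5 with the STAT letters, against 572 of 1361. For the YY1 letters the count among all genes was 469 of 573. Over all genes, 8169 of 17492 windows did.

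Other genes of the same pathways also had p65 peaks at their ends. Of 27 further oxidative phosphorylation genes, such as cytochrome c and assembly factors outside the naming rule, 8 had a p65 peak within 1 kb in WT without LPS, 23 at 30 min and 22 at 8 h, and of 13 citric acid cycle genes 6, 10 and 9. Of 12 regulators of mitochondrial biogenesis, 3, 8 and 9 did. The shares of all genes in these lists were 13.5%, 36.9% and 31.9%. For comparison, 6, 11 and 9 of 14 well-known NF-κB targets had a p65 peak within 1 kb. The median highest score at 30 min in WT was 87.5 for the NF-κB targets that had a peak and 30 for the respiratory genes that had one, against 32 for all genes that had one. At 8 h in WT these were 49 and 19, against 21.5 for all genes. In control WT cells they were 15.8 and 13.5, against 13.5 for all genes. Respiratory genes with a p65 peak thus had median scores at or below that of all genes with one in these 3 lists. Nfkbiz, which encodes an NF-κB cofactor, had 162.5 at 30 min, above the 82.5 of Ndufs8.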

How the data were processed

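Of 20 samples, 12 have peak lists, 1 library for each combination of antibody (p65 or SOCS1), genotype and treatment; 6 IgG and 2 internal control libraries were not analysed here. Nothing shows separate cultures. Reads were processed with cutadapt, Bowtie2 2.4.1 and HOMER 4.11 on mm10, per the submitters' processing notes. Per the file headers, the authors called peaks with findPeaks (style factor) in each library against the IgG library of its genotype and treatment, at a false discovery rate of 0.001, a fold of at least 4 over IgG and over the local 10 kb, and a Poisson p of 0.0001. The deposited signal is tags per peak scaled to 10000000 tags, the deposited score is the findPeaks score, and the deposited ratio columns give the fold over IgG and over local background. Libraries held 6.93 to 18.4 M tags.

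A gene was called where a peak centre lay within 1 kb (or 10 kb) of either end, in GRCm38.p6 (mm10) RefSeq coordinates, and its highest-scoring peak was used. Genes with scaffold coordinates (108) were left out. p65 and SOCS1 peaks overlapped where they shared at least 1 bp. RefSeq promoter windows matched 82 of the 100 genes and 17492 of all genes. With 1 library per group there is no test and no p-value. The counts were checked on simulated peaks with python 3.11.15, pandas 2.3.3 and numpy 2.4.6. Genes are named for the number of lists, the score, the pattern over lists, or their role in a complex. The genes and lists were chosen with earlier results of these data known. Alternatives were narrower windows, starts alone, the nearest gene, stricter peaks, equal list lengths and wider overlaps. The values of 1 of the 100 genes are not reported here, and it is kept in the counts.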

Additional observations from a re-analysis of the deposited data

Results flagged for a closer look

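With SOCS1 and the 10 kb window, the number of respiratory genes with a peak moved in opposite directions after LPS in the WT and KO libraries. At 30 min it was higher than in control by 24 genes in WT (65 against 41) and differed by -6 in KO (67 against 73). At 8 h the difference was 6 in WT (47 against 41) and -4 in KO (69 against 73). Each value compares 2 single libraries, so the difference between genotypes was not tested. All genes moved the same way, from 28.3% to 44.1% and 35.1% in WT and from 50.1% to 47.5% and 41% in KO. The KO control SOCS1 list is also the one with 88% of peaks over the lowest IgG value and with 24270 peaks against 9438 in WT.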

How the results depend on the processing

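The respiratory genes' share stood above that of all genes in 12 of 12 lists under each of 7 alternatives for the 1 kb counts. Counts per list stayed within 1.5 times under a 500 bp window, transcription starts alone (82 genes) and no assembly factors, as did overlap counts when a peak had to share at least 0.5 of the shorter one. With every list cut to its 9438 highest-scoring peaks, p65 counts were 19 (all genes 12.7%) and 19 (10.3%) at 30 min and 8 h in WT and 20 (11.9%) and 17 (10.6%) in KO, and SOCS1 counts in KO were 23 (17.2%) in control, 32 (18.8%) at 30 min and 24 (16.4%) at 8 h. The p65 rise after LPS in WT, from 28 to 72, became 28 against 19 at equal length, the opposite direction. It kept its direction with a lowest score of 12, at 19 (8.69%) in control against 71 (35.8%) at 30 min. With peaks at least 8-fold over local background these were 19 (7.34%) and 55 (24.7%). With a lowest score of 12 in all lists, the KO control counts were 14 (9.31%) for p65 and 19 (15%) for SOCS1. With peaks at least 8-fold over local background, the count was 27 (12%) for p65 in KO at 8 h and 23 (18.1%) for SOCS1 in KO control, and overlaps were 5 (2.47%) in WT control, 7 (4.46%) in KO control and 10 (5.83%) in KO at 8 h. With each peak given to its nearest gene alone, SOCS1 counts in WT were 14 (12%) in control and 17 (15.6%) at 8 h. The cause of these changes was not tested. No paired analysis was possible because each group has 1 library. A gene without a peak is not shown to be unbound.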
